A study of Mus musculus with 6 samples.

Results

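The transcripts followed here encode the subunits of AP-1 and the EGR factors that cells induce first after a stimulus. They were Fos, Fosb, Fosl1, Fosl2, Jun, Junb, Jund, Atf3, Egr1 and Egr2, 10 of 46603 genes in the count table, taken by gene symbol. RNA-Seq was carried out on CD11B+ cells from mouse kidney after bilateral ischemia-reperfusion AKI (IRI-AKI, a 28 minute clamp of the vessels on either side), and asked how the renal myeloid cells differ when retinoic acid receptor (RAR) signaling is blocked in the injured epithelium. Cells were collected on day 3 from male mice aged 10 to 12 weeks, all with the Rosa26-LSL-RARaT403X allele. In 3 of them, the PTEC DN RAR mice, this allele was combined with PEPCK CRE+, and the 3 Cre- controls were PEPCK CRE-. Each mouse gave 1 library. Both groups carry the Cre-activated, truncated RARa allele in the Rosa26 locus, bred to homozygosity. It is expressed only where Cre has acted, and the paper reports that PEPCK-Cre recombines efficiently in proximal tubule epithelial cells (PTECs). The CD11B+ cells themselves are thus not the cells in which the allele was meant to be active. Whether it was active in other cells was not tested here. No uninjured or sham library was analysed here, so the levels cannot be referred to a resting state. The comparison is between genotypes within injured kidneys.

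AP-1 is a dimer of basic leucine zipper proteins. FOS proteins cannot pair with each other and bind DNA with a JUN partner, whereas JUN proteins also form dimers among themselves, and ATF3 is a stress-induced relative that pairs with JUN proteins and often represses. EGR1 and EGR2 are zinc finger factors that bind GC-rich sites and, in myeloid cells, take part in the choice and maintenance of the macrophage program. Most of these genes respond within minutes to growth factors, cytokines, toll-like receptor ligands or mechanical stress through MAP kinases, serum response factor and CREB, and their transcripts decay quickly. Warm enzymatic digestion of a tissue is itself known to induce them. Here kidneys were minced and digested with Liberase at 37 °C before the CD11B beads were applied, in both groups alike.

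Promoter sequence from RefSeq (GRCm38.p6) was found for 8 of the 10 genes. Of the 6 genes whose window holds a match to a motif that these pathways use, 5 are given as the 150 bases before the annotated transcript start, 5′ to 3′ on the strand of the gene. Capitals mark the matches. The Egr2 window lies before one of several annotated starts of that gene, and the windows of Egr2, Atf3, Fosl2 and Fosb lie before a RefSeq start inside the span that GENCODE M21 gives the gene.
Fos (chr12:85473740-85473889, plus strand): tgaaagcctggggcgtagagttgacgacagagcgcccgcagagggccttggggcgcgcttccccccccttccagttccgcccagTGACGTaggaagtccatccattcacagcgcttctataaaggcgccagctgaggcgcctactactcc
Fosb (chr7:19310046-19310195, minus strand): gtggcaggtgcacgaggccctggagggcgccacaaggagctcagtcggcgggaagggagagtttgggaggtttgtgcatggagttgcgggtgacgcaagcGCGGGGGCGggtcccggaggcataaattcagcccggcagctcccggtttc
Jun (chr4:95052223-95052372, minus strand): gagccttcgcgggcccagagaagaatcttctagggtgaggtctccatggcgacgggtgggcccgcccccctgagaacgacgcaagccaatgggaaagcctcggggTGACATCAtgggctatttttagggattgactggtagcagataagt
Atf3 (chr1:191183334-191183483, minus strand): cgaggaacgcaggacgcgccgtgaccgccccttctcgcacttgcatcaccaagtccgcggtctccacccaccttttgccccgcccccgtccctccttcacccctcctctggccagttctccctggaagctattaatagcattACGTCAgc
Egr2 (chr10:67537719-67537868, plus strand): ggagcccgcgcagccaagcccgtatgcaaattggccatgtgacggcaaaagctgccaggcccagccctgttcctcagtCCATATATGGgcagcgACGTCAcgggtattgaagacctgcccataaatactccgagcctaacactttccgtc
The motifs searched, on both strands of the 250 bases before the start, were the AP-1 element TGANTCA, the 8-base CRE-type AP-1 element TGACNTCA, the CRE core TGACGT, the EGR element GCGNGGGCG and the CArG box of serum response factor. TGACGT and TGACNTCA can overlap. Fos holds TGACGT at positions -66 to -61 from its start, and Atf3 holds the same core on the other strand at -8 to -3. Jun holds the 8-base element TGACATCA at -45 to -38. Fosb holds the EGR element at -50 to -42, as does Fosl2 at -79 to -71. Egr2 holds a CArG box at -72 to -63 and a CRE core at -56 to -51. Across 32851 mouse promoters of the same length, TGACNTCA was found in 7.49%, TGANTCA in 6.75%, TGACGT in 6.47%, GCGNGGGCG in 4.7% and the CArG box in 1.47%. None of the 5 motifs was matched in the windows of Junb and Jund, and the RefSeq start used for Jund lies before the GENCODE span of the gene. A match to these letters is a description of the window and was not tested for binding.

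Libraries held 29318041 to 40741507 counts (Cre- control) and 42113139 to 46517005 counts (PTEC DN RAR) over all genes, and 3 counts were worth 0.0645 to 0.102 CPM, the count scaled to library size. CPM values below are scaled by TMM, which sets library sizes so that most genes do not shift. The label of the sort was checked against markers. Itgam, which encodes CD11B, measured 1737 to 1995 CPM in controls and 980.3 to 1366 CPM in PTEC DN RAR mice (log2 fold change -0.64, adjusted p = 0.00818 in edgeR), and the 10 resident macrophage markers summed to between 13873 and 17584 CPM, but markers of other cells were present and moved with genotype. Summed over 16 genes, proximal tubule markers rose from 882 to 1169 CPM in controls to 2865 to 4481 CPM in PTEC DN RAR mice (16 of 16 passed). Thick ascending limb markers rose from 1189.6 to 1595 CPM to 4536 to 8652 CPM (7 of 7 passed). Infiltrating monocyte markers went the other way, from 3812 to 4113 CPM down to 1611 to 1673 CPM (7 of 8 passed). Mitochondrial transcripts took 5.03 to 8.77% of counts in controls and 10.38 to 12.08% in PTEC DN RAR mice. Rara measured 35.3 to 45.4 CPM in controls and 30.7 to 37.6 CPM in PTEC DN RAR mice (log2 fold change -0.33, SE 0.13, adjusted p = 0.0628 in edgeR), and the transgene has no entry of its own.

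All 10 transcripts passed the filter on low counts. Tested with the quasi-likelihood method of edgeR at a threshold of 0.05 on the adjusted p, 7 were lower in PTEC DN RAR mice (Fos, Fosb, Fosl2, Jun, Junb, Atf3 and Egr2), 0 were higher, and Fosl1, Jund and Egr1 did not pass. The count of 7 fell to 3 with libraries scaled on pan-leukocyte genes, where 4.36% of all genes were lower, to 3 without PTEC DN RAR replicate 1 or without Cre- control replicate 1, where Jund was called higher, and to 4 without PTEC DN RAR replicate 2. Of the 15440 genes tested, 17.1% were lower and 23.6% were higher by the same rule. For 5 of the 10, every PTEC DN RAR library lay below every control library, against 24.2% of all genes tested, and for 0 every PTEC DN RAR library lay above every control, against 29.2% of all genes. The median log2 fold change of the 10 was -0.5, and that of all genes tested was 0.04. RNA was taken from whole CD11B+ preparations, so fewer cells carrying a transcript and less of it per cell cannot be told apart. The part of the monocyte and tubular markers above in these differences was not tested.

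**Figure D1:**
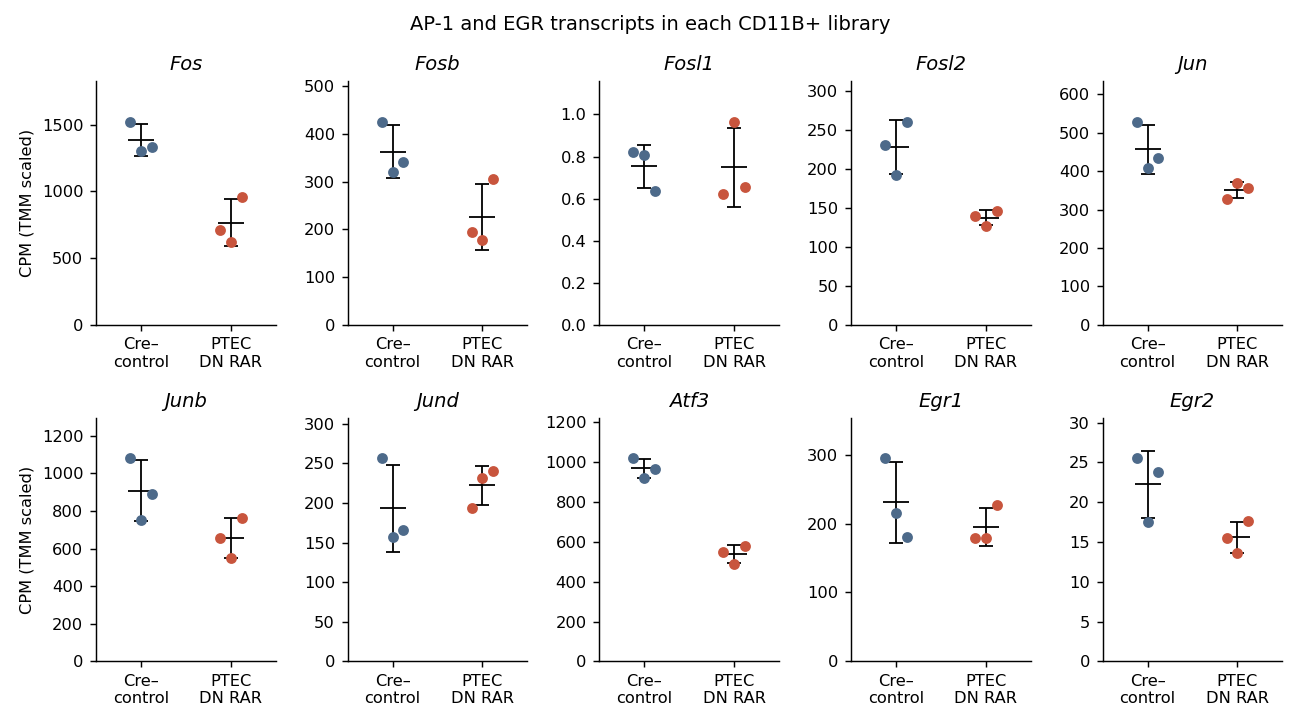
Level of each of the 10 transcripts in CPM scaled by TMM (vertical axis, starting at 0) in 3 Cre- control (blue) and 3 PTEC DN RAR libraries (red), with the mean and SD of each group as black bars. The groups are clear of each other for Fos, Fosb, Fosl2, Jun and Atf3 and overlap for the other 5.

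Fos (ENSMUSG00000021250, chr12:85473890-85477273 of GRCm38), the founding subunit, was the most abundant of the 10 per kilobase in controls and stood, with Atf3, at the lowest proportion of its control level. Control libraries held 1523, 1304 and 1335 CPM, and PTEC DN RAR libraries 713, 619 and 959 CPM. The highest PTEC DN RAR library stayed below the lowest control. Fos changed by a log2 fold of -0.86 (SE 0.16, 95% interval -1.23 to -0.49, adjusted p = 0.00413 in edgeR), which places Fos at 55.0% of its control level (95% interval 42.6 to 71.2%).

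Fosb (ENSMUSG00000003545, chr7:19302696-19310051) encodes a close relative that lasts longer as a protein in some of its forms. Its levels were 425, 320.4 and 342 CPM in controls and 193, 178 and 306 CPM in PTEC DN RAR mice. The groups did not overlap, but PTEC DN RAR replicate 3 lay only 14.3 CPM under the lowest control, and the same library was also the highest of its group for Fos. The log2 fold change of Fosb was -0.68 (SE 0.20, adjusted p = 0.0274). Without Cre- control replicate 1, PTEC DN RAR replicate 1 or PTEC DN RAR replicate 2 the adjusted p was 0.0758, 0.0911 and 0.0807.

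Fosl2 (ENSMUSG00000029135, chr5:32135801-32157842), which encodes FRA2, a FOS protein without the transactivation domain of FOS, fell by 0.73 on the log2 scale (SE 0.12, adjusted p = 0.00232 in edgeR). Control libraries held 231.5, 192 and 261 CPM and PTEC DN RAR libraries 139, 127 and 146 CPM. Here the PTEC DN RAR libraries were close to one another, with an SD of 9.78 CPM against 34.4 CPM in controls, and all lay below every control.

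Fosl1 (ENSMUSG00000024912, chr19:5447547-5455946), which encodes FRA1, was scarce in both groups. It had 32, 24 and 20 counts in controls and 26, 41 and 31 counts in PTEC DN RAR mice, or 0.634 to 0.820 CPM and 0.621 to 0.966 CPM. The ranges overlapped and the log2 fold change was -0.01 (adjusted p = 0.979 in edgeR; the sign turns to 0.21 when libraries are scaled on leukocyte genes), with a 95% interval of -0.72 to 0.70 that leaves room for sizable change in either direction. Fosl1 also shares 1163 of its 2033 exonic bases with Ccdc85b on the opposite strand, which had 181 to 488 counts. Whether the counting used strand is not given in the sources used here, so reads from the pair may not be told apart.

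Shares within the FOS subunits were as follows. Per kilobase of exon, which allows genes of different length to be set side by side, Fos made up 87.4 to 88.6% of the summed FOS level in controls and 86.2 to 86.9% in PTEC DN RAR mice. The sum itself was 740.0, 626 and 650 CPM per kb in controls against 349, 305 and 472 CPM per kb. Fosb contributed 8.20 to 10.4% and Fosl2 3.18 to 4.29% across the 6 libraries. The scarce Fosl1 made up 0.0480 to 0.0633% in controls and 0.0684 to 0.156% in PTEC DN RAR mice. The shares of Fos and of Fosl1 thus did not overlap between the groups, which was not tested. The share of Fosl1 rests on 20 to 41 counts per library, and its own level changed by only -0.01 while the sum fell. The log2 ratio of Fosl2 to Fos was -4.76, -4.80 and -4.40 in controls against -4.40, -4.33 and -4.76 in PTEC DN RAR mice. The groups overlapped and differed by 0.16 (exact permutation test, two-sided, p = 0.3, adjusted p = 0.35 over 7 ratios).

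The JUN subunits had log2 fold changes of mixed sign. Jun (ENSMUSG00000052684, chr4:95049034-95052222), the partner on which most FOS dimers depend, measured 529, 408 and 435 CPM in controls and 327, 368.5 and 356 CPM in PTEC DN RAR mice. All 3 PTEC DN RAR libraries were below all controls, though PTEC DN RAR replicate 2 came within 39.1 CPM of control replicate 2. The log2 fold change of Jun was -0.38 (SE 0.12, adjusted p = 0.0278 in edgeR). It was -0.27 without Cre- control replicate 1 (adjusted p = 0.0552) and -0.34 without PTEC DN RAR replicate 1 (adjusted p = 0.0923), and with the replicate number as a block its adjusted p was 0.0501.

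Junb (ENSMUSG00000052837, chr8:84974484-84978718), which restrains JUN on some targets and is strongly induced in activated myeloid cells, gave 1080.0, 754 and 891 CPM in controls and 659, 549 and 764 CPM in PTEC DN RAR mice. Control replicate 2 and PTEC DN RAR replicate 3 cross, so the groups overlapped. The log2 fold change was -0.47 (SE 0.16, 95% interval -0.84 to -0.10), just past the threshold with an adjusted p of 0.047 in edgeR. It passed in 2 of the 6 fits that each leave out a library. In the other 4, which leave out Cre- control replicates 1 and 3 and PTEC DN RAR replicates 1 and 2, the adjusted p ranged from 0.0747 to 0.141. Junb shares 173 exonic bases with Prdx2 on the opposite strand, which had 3884 to 6431 counts.

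Jund (ENSMUSG00000071076, chr8:70698949-70700616), which is expressed more evenly than its relatives and is less dependent on stimulation, did not pass. Its levels were 256, 156.5 and 166.5 CPM in controls and 194, 232 and 240.2 CPM in PTEC DN RAR mice. Control replicate 1 was the highest of all 6 libraries and the other 2 controls were the lowest. Jund had a log2 fold change of 0.20 (SE 0.18, 95% interval -0.21 to 0.62, adjusted p = 0.406 in edgeR). Leaving out Cre- control replicate 1 gave 0.46, with an adjusted p of 0.0162 in edgeR, so the call for Jund rests on that library. Jund shares 877 of its exonic bases with Gm11175 on the opposite strand, which had 3 to 22 counts.

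Shares within the JUN pool are shown next. Jund was 16.0 to 19.5% of the summed JUN level per kb in controls and 23.0 to 28.2% in PTEC DN RAR mice, while Junb was 59.5 to 62.1% and 48.3 to 56.7%. The log2 ratio of Jund to Jun was -0.11, -0.45 and -0.45 in controls against 0.18, 0.27 and 0.37 in PTEC DN RAR mice, a difference of 0.61 with no overlap. An exact permutation test gave p = 0.1, the smallest that 3 libraries against 3 allow, and 0.175 after adjustment over 7 ratios. The ratio of Junb to Jun differed by -0.09 (exact permutation p = 0.8), with PTEC DN RAR replicate 2 below and the other two PTEC DN RAR libraries among or above the controls.

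Atf3 (ENSMUSG00000026628, chr1:191170296-191218039), a brake on inflammatory genes in macrophages and an early mark of stressed tissue, had the smallest relative spread of the 10 in controls, a coefficient of variation of 5.0%. It measured 1019, 922 and 967 CPM in controls and 551, 489.6 and 579 CPM in PTEC DN RAR mice. The gap of 342.6 CPM between the groups was several times the SD of either, 48.4 and 45.8 CPM. Atf3 had a log2 fold change of -0.84 (SE 0.10, 95% interval -1.07 to -0.61, adjusted p = 0.000599 in edgeR), or 55.7% of control.

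Egr1 (ENSMUSG00000038418), which the study lists among RAR target genes, did not pass. The controls were spread, at 294.5, 216 and 181 CPM, and PTEC DN RAR libraries held 179, 178.5 and 227 CPM. Egr1 was highest in control replicate 1, and PTEC DN RAR replicate 3 exceeded 2 of the 3 controls. The log2 fold change was -0.24 (SE 0.18, adjusted p = 0.303 in edgeR), and its 95% interval, -0.65 to 0.16, includes falls of the size seen for Jun and Junb. It was -0.03 without Cre- control replicate 1 and -0.44 without Cre- control replicate 3.

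Egr2 (ENSMUSG00000037868, chr10:67535475-67542188), a regulator of myeloid and Schwann cell differentiation, was the lowest of the genes called. It measured 25.5, 17.5 and 23.8 CPM in controls and 15.5, 13.6 and 17.6 CPM in PTEC DN RAR mice. PTEC DN RAR replicate 3 exceeded control replicate 2 by 0.1 CPM, so the groups touch. For Egr2 the log2 fold change was -0.52 (SE 0.16, adjusted p = 0.0339 in edgeR), and it passed in 2 of the 6 fits that leave out a library, with adjusted p from 0.0811 to 0.1 in the other 4, which leave out Cre- control replicates 1 and 3 and PTEC DN RAR replicates 1 and 2.

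**Figure D2:**
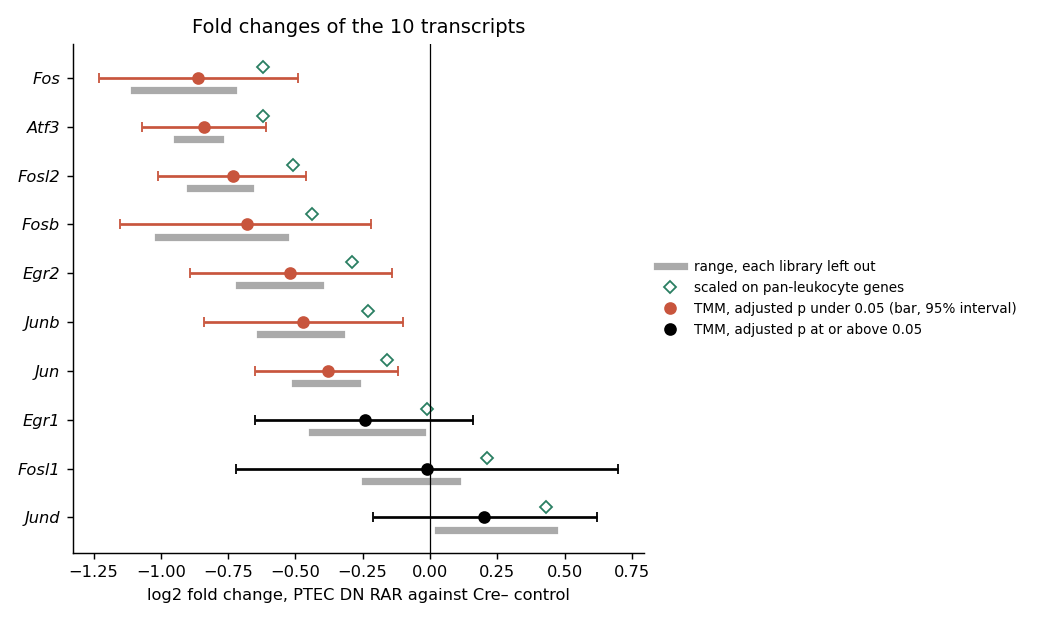
Log2 fold change of each transcript in PTEC DN RAR against Cre- control mice (horizontal axis) with its 95% interval, filled red where the transcript passed the edgeR test at 0.05 and black otherwise. Grey bars span the 6 fits that each leave out a library and open green diamonds give the value when libraries were scaled on pan-leukocyte genes, where Fos, Fosl2 and Atf3 were -0.62, -0.51 and -0.62.

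How libraries are scaled bears on these calls. When libraries were scaled on 26 pan-leukocyte genes instead of TMM, the median over all genes went from 0.04 to 0.25 on the log2 scale. With that scaling 673 genes were lower and 4906 higher. Of the 26 genes themselves, 8 were lower with TMM, Itgam among them, and 0 were higher, so this reference also differed with genotype under TMM. Fos (-0.62, adjusted p = 0.0279), Fosl2 (-0.51, adjusted p = 0.0217) and Atf3 (-0.62, adjusted p = 0.00401) still passed in edgeR with that scaling. Fosb, Jun, Junb and Egr2 were at -0.44, -0.16, -0.23 and -0.29 and did not pass, and Jund was at 0.43 (adjusted p = 0.112). A change of scaling shifts all genes by about the same amount, so values relative to the median gene stay nearly the same by construction. For Fos they were -0.90 with TMM and -0.88 with the leukocyte scaling, and for Atf3 -0.88 and -0.87. The same held for Jun, at -0.42 and -0.41, which lost its call, so this is no check of the calls. Across the 14 alternatives to the fit used here, Fos, Fosl2 and Atf3 passed in 14, Fosb and Jun in 10, Egr2 in 9 and Junb in 8.

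Set in order of level per kilobase, the controls ran from Fos at 589.8 ± 50.5 CPM per kb (mean ± SD, n = 3) through Atf3 at 449.9 ± 22.5, Junb at 395 ± 71.2, Jun at 143 ± 19.9, Jund at 116 ± 33.0, Fosb at 58.1 ± 8.89, Egr1 at 51.4 ± 13, Fosl2 at 23.6 ± 3.56 and Egr2 at 6.55 ± 1.24 to Fosl1 at 0.370 ± 0.0509. The library ranges of Atf3 and Junb, of Jun and Jund, and of Fosb and Egr1 overlapped, so those neighbors were not separated. In PTEC DN RAR mice the order was Fos at 325 ± 74.8, Junb at 286 ± 46.8, Atf3 at 251 ± 21.3, Jund at 133 ± 14.7, Jun at 109.9 ± 6.61, Egr1 at 43.5 ± 6.26, Fosb at 36.1 ± 11.2, Fosl2 at 14.2 ± 1.01, Egr2 at 4.58 ± 0.594 and Fosl1 at 0.368 ± 0.0933 CPM per kb. Neither Fos and Junb nor Junb and Atf3 were separated there, nor Egr1 and Fosb. All other neighbors in both orders were separated. By level per kb, Fos had rank 58 of 15393 genes in controls and rank 92 in PTEC DN RAR mice.

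**Figure D3:**
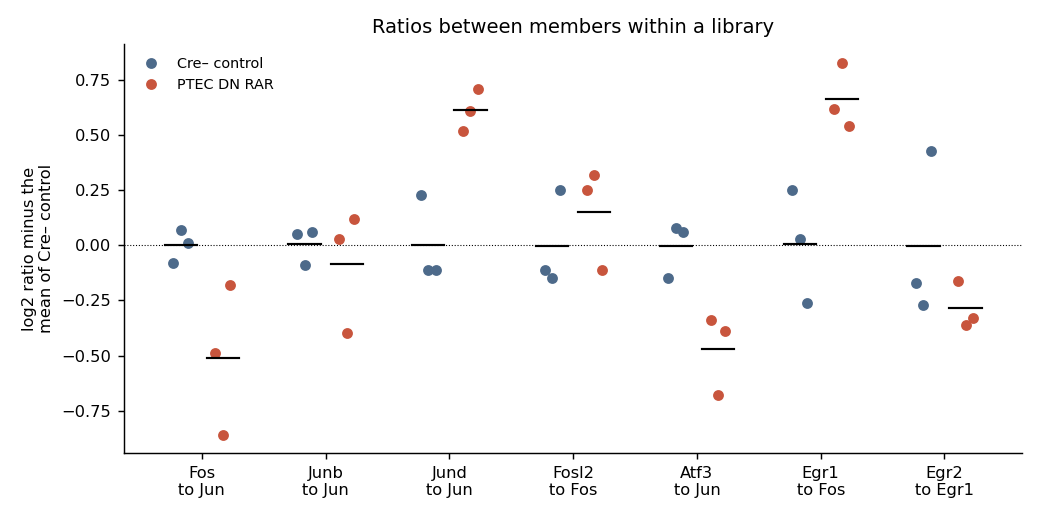
Log2 ratio of pairs of transcripts per kb of exon within each library, minus the mean of the Cre- controls (vertical axis), for controls (blue) and PTEC DN RAR mice (red), with group means as black lines. The groups do not overlap for Fos to Jun, Jund to Jun, Atf3 to Jun and Egr1 to Fos.

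Ratios within a library do not depend on how libraries are scaled to one another. The log2 ratio of Fos to Jun was 1.97, 2.12 and 2.06 in controls against 1.56, 1.19 and 1.87 in PTEC DN RAR mice, a difference of -0.51. That of Atf3 to Jun was 1.51, 1.74 and 1.72 against 1.32, 0.98 and 1.27, a difference of -0.47. The ratio of Egr1 to Fos was -3.30, -3.52 and -3.81 in controls against -2.93, -2.72 and -3.01 in PTEC DN RAR mice, a difference of 0.66. In each case the groups did not overlap and the exact permutation p was 0.1, the smallest possible here, with 0.175 after adjustment. Egr2 to Egr1 differed by -0.28 with overlap (exact permutation p = 0.3). Control replicate 3, at -2.53, stood apart from the other controls at -3.13 and -3.23, and PTEC DN RAR libraries were at -3.12, -3.32 and -3.29.

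The other genes of these pathways, 116 in 9 lists with the 10 transcripts left out, had a median log2 fold change of -0.19, with 42 lower and 16 higher, where 17.1% of all genes tested were lower and 23.6% higher. The heat shock and RAR target lists are among the 9 and were kept for comparison rather than as AP-1 or EGR pathway genes. Without them 89 genes remained, 39 lower and 5 higher, with a median of -0.29. With libraries scaled on pan-leukocyte genes, 21 of the 116 were lower and 22 higher and the median was 0.03, and of the 89, 19 were lower and 10 higher with a median of -0.05. That scaling called 4.36% of all genes tested lower and 31.8% higher and raised their median to 0.25. The median of the 116 lay 0.23 below the median of all genes with either scaling, which follows from the nearly uniform shift. Among 11 other AP-1 bZIP factors, 3 were lower and 1 was higher (median -0.19, or 0.03 with the leukocyte scaling, where 1 was lower and 1 higher). Jdp2, a repressor that dimerizes with JUN, went from 74.7 ± 18.0 CPM in controls to 47.3 ± 5.08 CPM (mean ± SD, n = 3; log2 fold change -0.66, adjusted p = 0.0155 in edgeR), a call lost with the leukocyte scaling. Maf, a regulator of macrophage identity, changed by -0.56. Batf3, needed for a class of dendritic cells, rose by 0.71, from 9.83 ± 1.25 to 16.1 ± 2.99 CPM, and it is also 1 of the 7 dendritic cell markers, of which 3 passed, all higher, with a median of 0.29. Without Cre- control replicate 3 the call for Batf3 was lost. Of the EGR relatives and their NAB corepressors, 3 of 4 were tested. Nab2, a corepressor that EGR factors induce, fell by 0.37 (adjusted p = 0.0481), while Nab1 at -0.25 and Egr3 at 0.51 did not pass. The call for Nab2 was lost in 9 of 14 alternatives, which are the leukocyte scaling, limma-voom, at least 10 counts in every library, the replicate number as a block, and 5 of the 6 fits that leave out a library, all but that without Cre- control replicate 2.

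Of the 25 other immediate early genes, 13 were lower and 2 were higher, against 17.1% and 23.6% of all genes, with a median of -0.41. With the leukocyte scaling, where 4.36% of all genes were lower and 31.8% higher, 6 were lower and 3 higher, with a median of -0.19. Relative to the median of all genes the list stood at -0.44 with TMM and -0.45 with the leukocyte scaling, nearly the same by construction. Ier3, a survival gene, fell from 149 ± 43.3 to 41.4 ± 9.47 CPM (-1.85, adjusted p = 0.000795 in edgeR). Tiparp, an ADP-ribosyltransferase, and Csrnp1, a nuclear factor, changed by -1.16 and -0.96. The exceptions were Arc, known from neuronal plasticity, which rose from 7.19 ± 3.56 to 27.3 ± 6.43 CPM (1.92), and Cyr61, a matricellular protein, which rose from 20.6 ± 3.24 to 35.6 ± 5.86 CPM (0.79). Nr4a1, Ier2 and Btg2, also textbook immediate early genes, were at -0.20, 0.03 and -0.03 and did not pass. These 3 were picked after their values were seen.

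Transcripts of the signaling chain upstream had list medians near 0. The leukocyte scaling moves these medians together with that of all genes, and relative to the median of all genes the kinases stood at -0.13 with either scaling. The counts of the next 3 lists stand against 17.1% of all genes lower and 23.6% higher with TMM, and 4.36% and 31.8% with the leukocyte scaling. Of 15 MAPK cascade kinases 5 were lower and 0 higher (median -0.09, or 0.12 with the leukocyte scaling, where 0 were lower and 1 higher), with Mapk8 (JNK1) at -0.47, Map3k8 at -0.44 and Map2k4 at -0.42. Of the 6 regulators of the serum response element, Elk1 (-0.50) and Elk3 (-0.37) were lower, and Srf was at 0.11 and did not pass (median -0.04, or 0.18 with the leukocyte scaling, where 0 were lower and 1 higher). Phosphatases and feedback inhibitors, which MAPK activity induces, had 3 lower and 1 higher of 13 (median -0.15, or 0.06 with the leukocyte scaling, where 3 were lower and 3 higher). With DESeq2 or with no filter 5 were lower and 2 higher, and without PTEC DN RAR replicate 3, 5 were lower and 0 higher. Dusp1 went from 1195 ± 140.2 to 625 ± 73.8 CPM (-0.94, adjusted p = 0.001 in edgeR), Dusp5 changed by -1.29 and Dusp6 by -0.75. Spry1, an inhibitor of growth factor signaling, rose by 0.99 from a low level of 3.24 CPM, a call that was lost without Cre- control replicate 2 or 3 or any 1 of the PTEC DN RAR libraries.

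Genes held in textbooks as AP-1 or EGR1 targets had the lowest median of the 9 pathway lists, -0.85, though neutrophil and infiltrating monocyte markers had lower medians of -1.02 and -0.99. Of the targets, 12 of 17 were lower and 1 was higher, against 17.1% and 23.6% of all genes. With the leukocyte scaling 9 were lower and 1 higher, against 4.36% and 31.8% of all genes, with a median of -0.62. Ccl2, the monocyte chemoattractant, measured 155, 192 and 189.6 CPM in controls and 41.3, 40.9 and 52.8 CPM in PTEC DN RAR mice (log2 fold change -1.99, adjusted p = 0.000145 in edgeR). Mmp9, a gelatinase also carried by neutrophils, and Thbs1, a matrix protein, changed by -2.09 and -1.87. Pdgfb, a growth factor for pericytes, rose by 0.78, and Plau, Mmp13, F3 and Tgfb1, at 0.26, 0.18, -0.03 and -0.06, did not pass and are named as the remainder of the list. Several genes of the list are made by infiltrating monocytes and neutrophils. The summed neutrophil markers were 471 to 849 CPM in controls and 299 to 426 CPM in PTEC DN RAR mice, and their part in the change of this list was not tested.

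**Figure D4:**
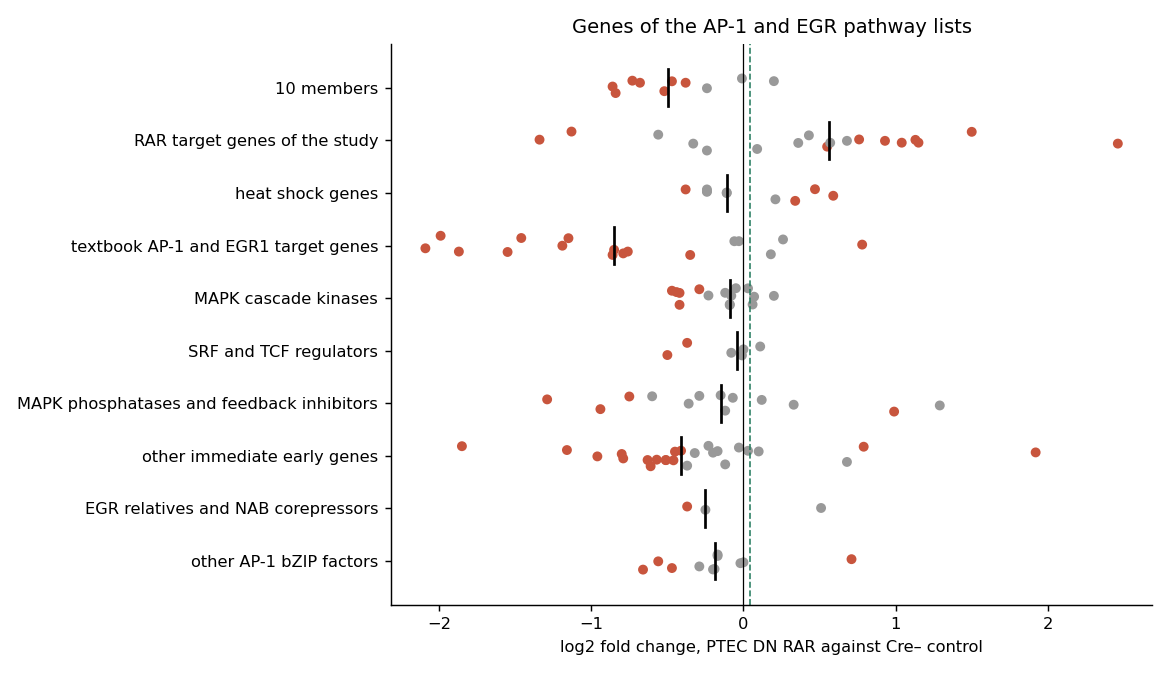
Log2 fold change of each tested gene (points) in PTEC DN RAR against Cre- control mice for the 10 transcripts and 9 lists of related genes, red where it passed the edgeR test at 0.05 and grey otherwise. Black ticks are list medians, from -0.85 for AP-1 and EGR1 targets to 0.56 for the RAR target list, and the dashed green line is the median of all genes tested, 0.04.

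Heat shock genes, which tissue digestion also induces, were divided. Of 10, 1 was lower and 3 were higher (median -0.11, or 0.12 with the leukocyte scaling, where 0 were lower and 4 higher). Of all genes, 23.6% were higher with TMM and 31.8% with the leukocyte scaling. Without Cre- control replicate 2 or 3, or PTEC DN RAR replicate 2 or 3, only 1 was higher. Hsp90ab1 changed by -0.38, Dnajb1 by 0.34, and Hspa1a and Hspa1b by 0.47 and 0.59. The call for Dnajb1 was lost in 8 of 14 alternatives, among them DESeq2, relative log expression size factors and the replicate block, and that for Hspa1a in 4, each leaving out a library. Hspa1a and Hspa1b are near-identical copies, so reads between them are counted incompletely and their split is uncertain. A list of 26 RAR target genes was taken from the set of the study, without its RA regulatory genes. Over 18 tested the median was 0.56, with 2 lower and 8 higher, against 17.1% and 23.6% of all genes. Without Cre- control replicate 3, 4 were higher. With the leukocyte scaling 2 were lower and 8 higher, against 4.36% and 31.8% of all genes, with a median of 0.79. Cd38 (-1.34) and Tgm2 (-1.13) were lower. Pck1, a proximal tubule enzyme whose promoter drives the Cre used here, rose by 2.46, followed by Hoxd4 (1.5) and Cryab (1.15). Egr1 is the one gene of that list among the 10. Proximal tubule markers had a median of 1.77, and the part of tubular transcripts in the RAR target list was not tested.

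**Figure D5:**
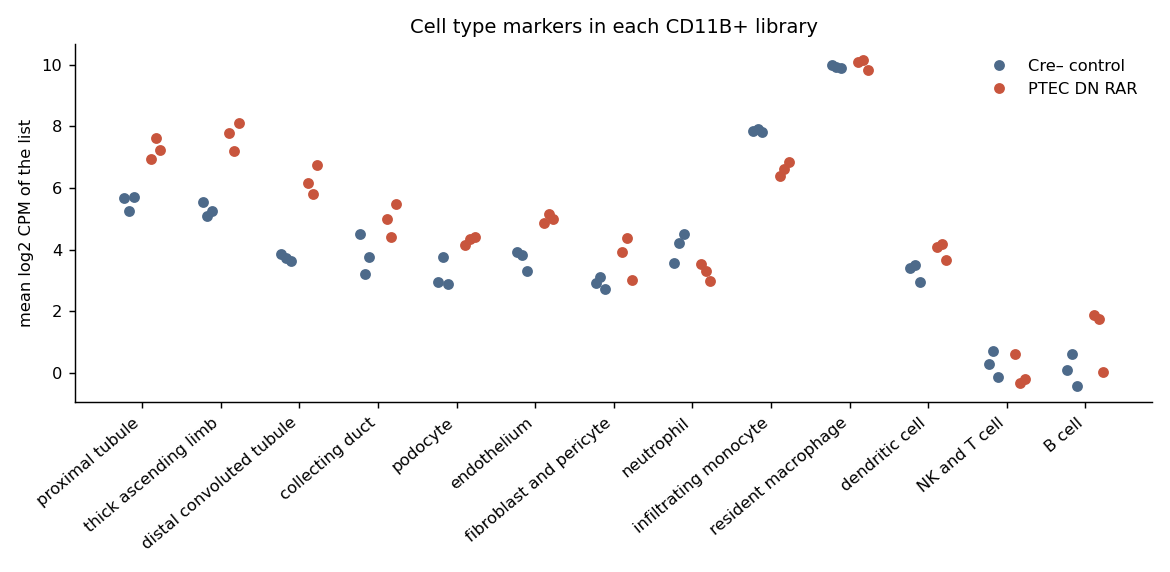
Mean log2 CPM of 13 lists of cell type markers (vertical axis) in each Cre- control (blue) and PTEC DN RAR library (red). Proximal tubule markers were higher by 1.70 and infiltrating monocyte markers lower by 1.24 in PTEC DN RAR mice, with no overlap, while resident macrophage markers differed by 0.08 and overlapped.

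The marker lists place these values among the cells present. Resident macrophage markers had a mean level that differed by 0.08 on the log2 scale and overlapped, though 2 of the 10 were lower (Fcgr1 at -0.83 and Mertk at -0.34) and 1 was higher (Cd81 at 0.97). Infiltrating monocyte markers were lower in every PTEC DN RAR library, by 1.24, and 7 of 8 passed. The neutrophil mean was lower by 0.81, and 5 of 10 passed. The pan-leukocyte mean was lower by 0.22, with 8 of 26 genes passing. Tubular, podocyte and endothelial means lay above all controls in each PTEC DN RAR library, except for collecting duct, where the groups overlapped. NK and T cell markers summed to no more than 24.8 CPM and B cell markers to no more than 49.3 CPM in any library.

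Variation among mice of one genotype was shared by some transcripts and not by others. Over the 6 libraries, after the mean of each genotype was taken out, log2 levels of Fos and Fosb had a Pearson correlation of 0.98, as did Jun and Jund, and Junb and Atf3 had 0.95. Fos and Jun had 0.28 and Fosl2 and Egr1 -0.03. Within their groups, PTEC DN RAR replicate 3 stood 0.35 above the group mean for Fos and 0.48 above it for Fosb on the log2 scale, and control replicate 1 stood 0.44 above it for Jund and 0.38 for Egr1. These are descriptions over 6 points, in which both values of a point come from the same library.

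Across all 6 libraries, the genes most like Fos among 8991 with a mean of at least 10 CPM were Ccdc86, Mocos and Brd3, with Pearson correlations of log2 CPM of 0.998, 0.997 and 0.997. Ccdc86 measured 43.9, 37.9 and 39.2 CPM in controls and 18.8, 17.4 and 26.6 CPM in PTEC DN RAR mice, again with PTEC DN RAR replicate 3 the highest of its group. Those most like Egr1 were Foxred1, Scarb1 and Txnrd2, with 0.989, 0.986 and 0.977. These libraries also share the genotype difference, which 40.6% of all genes tested passed, so the correlations are given as a description.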

How the data were processed

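CD11B+ cells from 6 mice, 1 library each, were profiled by poly(A) RNA-Seq from RNA with a RIN above 7.9. What the authors deposited are whole read counts by Ensembl gene, not normalized. Per the labels, the submitters' processing notes name STAR 2.5.0a, HTSeq 0.6.1, edgeR, limma and GRCm38. The summary lines of the table put 42.93 to 47.75% of alignments per library as not unique, and such reads are left out, which lowers genes with near-identical copies. Whether counting used strand, and the annotation release, are not given in the sources used here.

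The table held 46612 lines. Repeats (9) were collapsed, leaving 46603 genes, and 27 symbols turned into dates were restored. Coordinates and exon lengths are from GENCODE M21, which holds 46091 of the identifiers. Low genes were removed with filterByExpr, libraries were scaled by TMM, and genotypes were compared with the quasi-likelihood test of edgeR 4.0.16 (R 4.3.3), adjusted by Benjamini-Hochberg over 15440 genes, with a threshold of 0.05. All adjusted p-values of single genes come from this fit unless another is named. The standard error is the log2 fold change divided by the square root of F. Ratios between transcripts used counts per kb of exon with 0.5 added and exact permutation tests, two-sided, whose smallest p is 0.1. Motifs and sequences were read from RefSeq promoters. The test was tried on simulated counts for this comparison with 200 genes changed of 15440. edgeR called 68.9% of genes changed by 1 on the log2 scale and 95.5% of those changed by 2. Of its calls 7.2% were of unchanged genes, against 6.7% for limma-voom and 18.3% for DESeq2. The simulated share of changed genes was far below the 40.6% called here, and no change under 1 was tried. These rates therefore need not hold for the calls reported. Depth gives 0.0645 to 0.102 CPM for 3 counts, which covers counting error only. Pairs of libraries within a genotype differed by a chi-square of 27.8 or more per degree of freedom, and all 6 entered as separate samples.

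The genes and lists were chosen with earlier results of these data known. The text names all 10 members, up to 3 higher and 3 lower called genes with the largest change from each list, any gene of a list of 6 or fewer, and the 3 genes most correlated with Fos and Egr1. Outside this rule, Nr4a1, Ier2, Btg2, Plau, Mmp13, F3 and Tgfb1 were named after their values were seen, as were Fcgr1, Mertk and Cd81, the resident macrophage markers that passed, and Itgam and Rara are checks. One gene that this rule would name is not reported here. Libraries are grouped by genotype as labelled. Replicate numbers join different animals. Deviations of same-numbered libraries had correlations of -0.015, 0.211 and 0.029, against -0.181 to 0.151 for libraries of different number. So few values cannot exclude a batch shared by number. The labels give no pairing, and the number entered only as an alternative. Other alternatives were DESeq2 1.42.0, limma-voom (limma 3.58.1), other scalings and filters, and leaving out each library.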

Additional observations from a re-analysis of the deposited data

How the results depend on the processing

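Alternatives to the fit used in the report were DESeq2, limma-voom, relative log expression size factors, library size alone, scaling on pan-leukocyte genes, no filter, at least 10 counts in every library, the replicate number as a block, and leaving out each of the 6 libraries. Fos, Fosl2 and Atf3 kept their direction and their call in all 14. With pan-leukocyte scaling 673 genes were lower and 4906 higher, 87.9% of calls being higher against 58.0%, and 3 of the 10 transcripts and 21 of the pathway genes were lower. With the replicate block, 2606 genes were lower and 3612 higher, and 6 of the 10 transcripts were lower, Jun being lost with an adjusted p of 0.0501. No other of the 10 changed its call under the block, and the labels do not say that the numbers pair the mice. With at least 10 counts in every library, 6 of the 10 were lower, Junb being lost with an adjusted p of 0.0574.

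When 1 library was left out, 3 to 7 of the 10 transcripts were lower and 0 to 1 higher, over all genes 1874 to 2824 were lower and 2433 to 3699 higher, and among pathway genes 36 to 45 were lower and 8 to 16 higher. The count of transcripts was 3 without Cre- control replicate 1 or PTEC DN RAR replicate 1 and 4 without PTEC DN RAR replicate 2, and the 8 pathway genes came without Cre- control replicate 3. The cause was not tested beyond the fewer libraries that such fits hold. Fosl1 changed sign to 0.21 with pan-leukocyte scaling, 0.01 with at least 10 counts in every library, 0.05 without Cre- control replicate 1, 0.10 without PTEC DN RAR replicate 1 and 0.03 without PTEC DN RAR replicate 3, each from a value of -0.01 with no call, and was -0.24 at its lowest, without PTEC DN RAR replicate 2. The log2 ratio of Junb to Jun ran from -0.19 to 0.07 and changed sign, to 0.07, without PTEC DN RAR replicate 2. A prior count of 2 in place of 0.5 left the 7 ratios as they were. Fosl1, at 20 to 41 counts per library, is limited by depth. The other 9 transcripts had at least 521 counts in every library, so the spread between mice, with 3 per group, limits their precision.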
